A study of Saccharomyces cerevisiae BY4741 with 6 samples.

Results

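Deposited nascent-transcript counts were examined for 44 budding yeast genes. Relative to the library total, their counts were low 15 min after a shift from glucose to galactose medium. By 60 min the counts were back near their glucose level, in both strains of the study. The genes were chosen by the values themselves. On log2 of CPM plus 2 (CPM, counts per 1000000 counts of the library), a member had to be at least 1 unit below glucose at 15 min and no more than 0.3 units below glucose at 60 min, in each strain. It also had to have a mean count of 50 or more and lie outside chromosome XI. Of 5219 genes in the table, 4786 met these last conditions, and the 44 members are 0.919% of them. Every change over time given for the members is therefore a description of how they were chosen and carries no test. The rule asked the same of both strains and used no difference between them, and the strain difference was tested. The test takes its error from how that difference varies between conditions. The rule limited the changes between conditions in both strains, so the choice of members is not fully separate from the test.

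The measurements are NET-seq (native elongating transcript sequencing), which sequences RNA held by RNA polymerase II, pulled down here through a FLAG tag on its subunit Rpb3. The spp1 deletion strain (BY4741, RPB3-3xFLAG, spp1::KanMX6) lacks a PHD-finger subunit of COMPASS, the histone H3 lysine 4 methyltransferase, and the wild type (BY4741, RPB3-3xFLAG-His3MX6) carries the tag alone. Each strain was sampled in log phase in YPD, which contains glucose, and after 15 and 60 min in YPG, which contains galactose, as 1 library each, so that no value below has a replicate. Galactose cultures were centrifuged and resuspended, a step the labels do not describe for the glucose cultures, so that handling, medium and time since transfer cannot be told apart.

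In budding yeast, many genes of cell division are transcribed in waves. One wave at the start of the cycle, driven by the factors SBF and MBF, makes G1 cyclins, bud-site and wall proteins, a later one driven by Mcm1 with Fkh2 makes mitotic cyclins, and another at the end of mitosis makes replication-licensing factors such as Cdc6. Phosphate genes form a separate regulon under the factor Pho4, which the cyclin-dependent kinase Pho85 holds in check when phosphate is plentiful. Because a NET-seq count follows engaged polymerase rather than stored mRNA, it can change within minutes.

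Library totals ran from 1162190 to 4167249 counts, and 1 count equalled between 0.24 and 0.86 CPM. SPP1 had 1, 0 and 0 counts in glucose, at 15 min and at 60 min in the deletion, against 324, 69 and 131 in the wild type. The a-cell genes STE2, MFA1, MFA2 and AGA2 had mean counts from 230 to 1737, the alpha-cell receptor gene STE3 a mean of 7.0 and the alpha-agglutinin gene SAG1 a mean of 32.3. BY4741 is a MATa strain. The 44 members together took 0.963% of all counts in glucose, 0.276% at 15 min and 1.00% at 60 min in the deletion, and 0.98%, 0.287% and 1.29% in the wild type. Values below are CPM of the library total. They are shares of each library, so a change common to all genes would not show, and absolute levels cannot be read from them. Intervals are exact 95% intervals on the ratio of counts, which cover counting error only.

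A low count at 15 min was common, and a return by 60 min was not. Of the 4786 genes, 1125 (23.5%) were at least 1 log2 unit below glucose at 15 min in both strains. Of these, 1034 were still more than 0.3 units below glucose at 60 min in both strains, 47 were in 1 strain, and the 44 members, or 3.91%, were in neither. At 15 min the members' median change was -1.59 in the deletion and -1.64 in the wild type, against -2.17 and -2.30 for genes that stayed low and -0.09 and -0.10 over all 4786 genes. At 60 min the members' median was 0.04 in the deletion and 0.21 in the wild type, while the genes that stayed low were at -1.49 and -1.36. The 2 sets also differed in starting level. The median glucose level was 117 CPM in the deletion and 155 CPM in the wild type for members, 213 and 220.5 CPM for genes that stayed low, and 114 and 119 CPM over all 4786 genes.

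**Figure D1:**
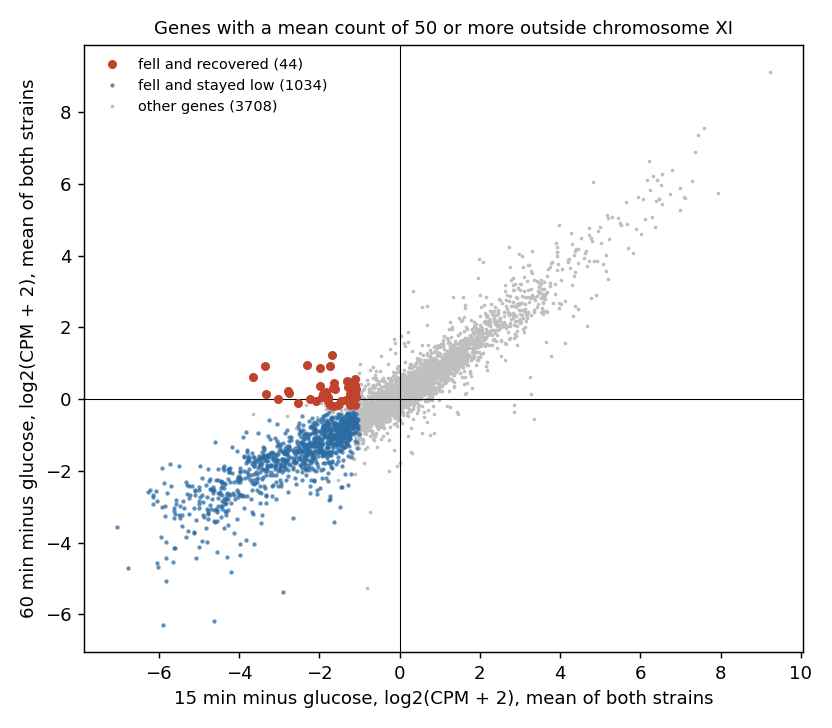
Change from glucose at 15 min (x axis) and 60 min (y axis) on log2(CPM + 2), averaged over both strains, for the 4786 genes with a mean count of 50 or more outside chromosome XI. The 44 members (red) sit left of -1 near the horizontal zero line, whereas the 1034 genes that stayed low (blue) lie below it.

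The edge of the rule is not a gap. Nearest inside the 15 min limit, in the strain closer to it, were BUD8 at -1.0022, IRC8 at -1.0063 and ARP1 at -1.0236. Nearest outside were MNN5 at -0.9989, MCM3 at -0.9893 and CDC21 at -0.9749. At 60 min GIC1 (-0.2981), SLK19 (-0.2835) and PHO86 (-0.2728) lay just inside, and TAF11 (-0.3058), DSE4 (-0.308) and PHO5 (-0.3189) just outside. NCA3, THI21 and KAR3 had the lowest mean counts among members, 50.5, 56.0 and 61.8, and the next gene below the minimum that met the other limits, YPR170C, had 12.7. On chromosome XI, ASH1 and ABF1 met the limits and were left out.

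Scaling moves the edge as well. With library totals multiplied by edgeR's TMM factors in place of totals alone, 28 genes met the rule, all of them members, and 16 members dropped out, namely PHO84, GIC1, KAR3, SLK19, PHO81, VTC3, SPC98, ARP1, MFA1, DYN3, THI21, IRC8, MUP1, PHO86, ANP1 and BUD8. At 60 min the counting interval lay above glucose for 14 members in the deletion and 20 in the wild type, and below glucose for 6 in the deletion and 0 in the wild type. For 17 members it spanned zero in both strains. As the rule bounded the 60 min change from below only, the balance of these counts is partly set by the choice of members, and nothing is read from it.

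**Figure D2:**
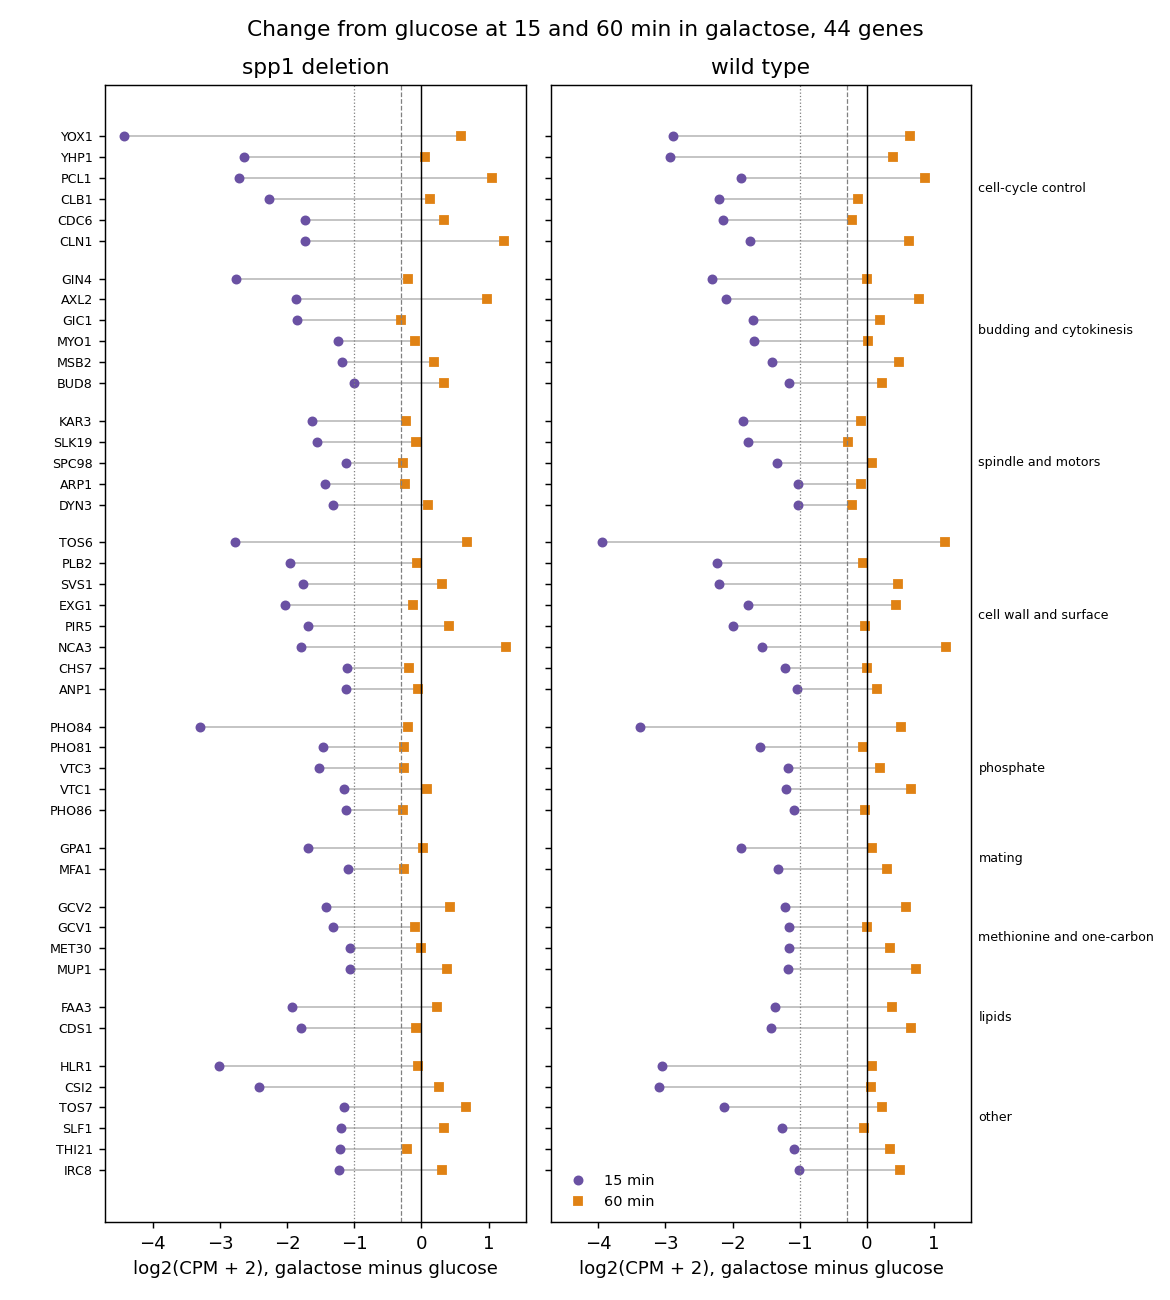
Change from glucose on log2(CPM + 2) at 15 min (purple circles) and 60 min (orange squares) for each of the 44 genes, grouped by role, with the spp1 deletion in the left panel and the wild type in the right. The dotted and dashed lines mark the limits of -1 at 15 min and -0.3 at 60 min, and YOX1, TOS6 and PHO84 reach furthest left.

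The members were grouped by known role after they had been identified. Cell-cycle control was represented by 6 genes, and all 6 stayed members with TMM scaling. YOX1 (YML027W, chromosome XIII, 221406 to 222563 in sacCer3) encodes a homeobox repressor that acts beside Mcm1 at genes of the end of mitosis and early G1. It had 117, 3.57 and 177 CPM in glucose, at 15 min and at 60 min in the deletion, against 153, 18.9 and 238 CPM in the wild type. The 15 min libraries held 6 counts in the deletion and 24 in the wild type, the deepest mean fall of any member. YHP1 (YDR451C, chromosome IV, 1361120 to 1362181), the paralog of YOX1 with the same kind of role, had 255, 39.3 and 263 CPM in the deletion and 308, 38.6 and 406 CPM in the wild type. Both repressor genes were thus at 15.4% of their glucose level or less at 15 min in both strains.

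The 2 G1 cyclin genes overshot. They were among 10 members with a 60 min interval above glucose in both strains. The others were YOX1, TOS6, SVS1, AXL2, NCA3, GCV2, VTC1 and MUP1. As the rule set no upper limit at 60 min, this count is partly set by the choice of members, and nothing is read from it. Of the 4786 genes, 2483 in the deletion and 2507 in the wild type were above glucose at 60 min by any amount. PCL1 (YNL289W, chromosome XIV, 87897 to 88736) encodes a cyclin of the kinase Pho85, and CLN1 (YMR199W, chromosome XIII, 662644 to 664284) a cyclin of the kinase Cdc28. PCL1 had 242, 35.1 and 502 CPM in the deletion and 282, 75.6 and 518 CPM in the wild type, so that the 60 min level was 207% and 183% of the glucose level. CLN1 had 93.6, 26.8 and 223 CPM in the deletion and 149, 43.3 and 232 CPM in the wild type, which put 60 min at 238% and 155% of glucose. The strains were close at 60 min for both genes. PCL1 was lower in the deletion mainly at 15 min (-1.06 on log2(CPM + 2), against -0.22 in glucose), whereas the gap of CLN1 was as wide in glucose (-0.66) as at 15 min (-0.66).

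CLB1 (YGR108W, chromosome VII, 703636 to 705051), a B-type cyclin gene of mitosis, came back to its glucose level without passing it. Its levels were 182, 36.3 and 199.6 CPM in the deletion and 223, 47.2 and 204 CPM in the wild type, and both 60 min intervals spanned zero. CDC6 (YJL194W, chromosome X, 69338 to 70879) encodes the loader of the replicative helicase at origins. It had 93.8, 26.8 and 119 CPM in the deletion and 194, 42.5 and 166 CPM in the wild type, lower in the deletion in each condition. Its 60 min interval was above glucose in the deletion (0.05 to 0.62) and reached from -0.45 to 0.00 in the wild type.

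Budding, polarity and cytokinesis gave 6 members, of which GIN4, AXL2, MYO1 and MSB2 remained with TMM scaling. AXL2 (YIL140W), the membrane landmark of axial budding, had 44.2, 10.7 and 88.6 CPM in the deletion and 56.9, 11.8 and 98.6 CPM in the wild type. GIN4 (YDR507C), a kinase of septin assembly, had 88.1, 11.3 and 76.6 CPM in the deletion and 86.2, 15.7 and 86.3 CPM in the wild type. AXL2 therefore passed its glucose level at 60 min in both strains, while GIN4 only returned to it. GIC1 (a Cdc42 effector), MYO1 (the type II myosin of the contractile ring), MSB2 (a mucin-like osmosensor) and BUD8 (the landmark of the distal pole) had 15 min levels between 26.7% and 47.8% of glucose and 60 min levels between 81.1% and 139.9% over both strains.

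The spindle and motor group had 5 members with smaller changes. They were KAR3 (a kinesin), SLK19 (a kinetochore and spindle protein), SPC98 (of the gamma-tubulin complex), ARP1 (of dynactin) and DYN3 (a dynein light intermediate chain). Their 15 min levels were 23.4% to 48.1% of glucose and their 60 min levels 81.6% to 107%, and no 60 min interval of the 5 excluded zero in either strain. None of them met the rule with TMM scaling. KAR3 had a low depth per length in glucose, 18.6 CPM per kb in the deletion, where MYO1 and AXL2 were lower still, and 15.3 in the wild type, the lowest of the members there. It rested on 20 counts at 15 min in the deletion and 10 in the wild type.

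**Figure D3:**
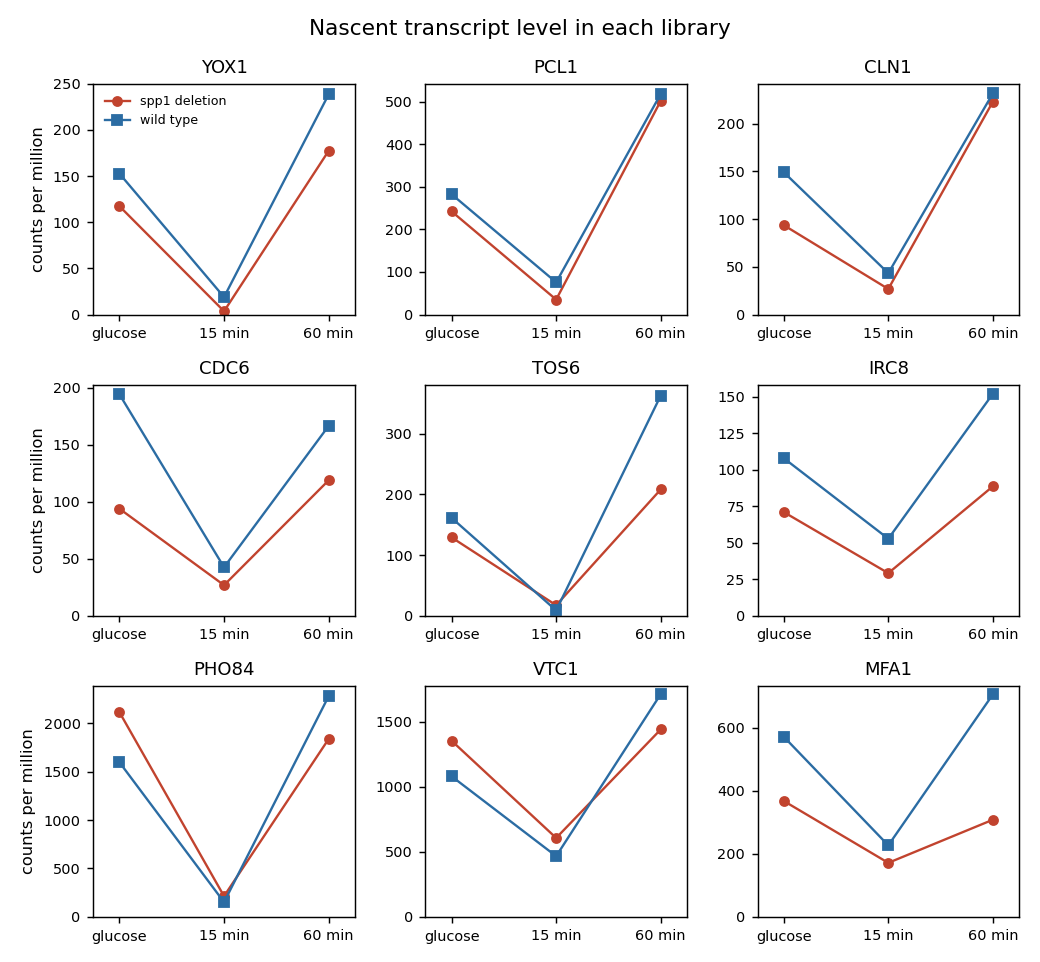
CPM in each of the 6 libraries for 9 members, with the spp1 deletion in red circles and the wild type in blue squares, 1 library per point, each panel with its own linear axis from 0. All 9 are lowest at 15 min in both strains. YOX1, PCL1, CLN1, TOS6, IRC8 and VTC1 end above their glucose level in both strains. YOX1, PCL1, CLN1, CDC6, IRC8 and MFA1 are lower in the deletion in every condition.

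Genes of the cell wall and surface were the most numerous group, with 8 members, 7 of which remained with TMM scaling. TOS6 (YNL300W, chromosome XIV, 65744 to 66052) encodes a glycosylphosphatidylinositol-anchored wall protein whose name stands for target of SBF. It had 129, 17.2 and 208 CPM in the deletion and 161, 8.66 and 363 CPM in the wild type. The wild-type library at 15 min held 11 counts of it. Its 60 min level was 161% of glucose in the deletion and 225% in the wild type.

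NCA3 (YJL116C, chromosome X, 193860 to 194873), of the SUN family of wall proteins, had the highest 60 min levels relative to glucose of all members. It had 21.4, 4.76 and 54.2 CPM in the deletion and 22.5, 6.3 and 53.4 CPM in the wild type, 254% and 237% of glucose at 60 min. The values of the 2 strains lay close together in each condition, although only 8 counts stood behind each 15 min value. SVS1, a wall protein gene tied to vanadate resistance, was also above glucose at 60 min in both strains, with 127, 36.3 and 157 CPM in the deletion and 164, 33.8 and 225 CPM in the wild type.

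The glucanase gene EXG1, an enzyme of wall remodelling, parted by strain at 60 min. It had 565, 137 and 516 CPM in the deletion and 641, 187 and 869 CPM in the wild type, and its 60 min interval reached from -0.26 to 0.00 in the deletion and from 0.33 to 0.55 in the wild type. PLB2 (a phospholipase B), CHS7 (an export chaperone of chitin synthase) and ANP1 (of a Golgi mannosyltransferase complex) returned to glucose with intervals that spanned zero in both strains. PIR5, of the PIR family of wall proteins, was above glucose at 60 min in the deletion (0.15 to 0.69) and not in the wild type (-0.31 to 0.26).

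The phosphate group held 5 members with high counts. PHO84 (YML123C, chromosome XIII, 24037 to 25800), the high-affinity phosphate transporter gene, had 2114, 213 and 1837 CPM in the deletion and 1597, 152 and 2279 CPM in the wild type. VTC1 (YER072W, chromosome V, 302806 to 303195), a subunit of the vacuolar polyphosphate polymerase, had 1353, 606 and 1439.5 CPM in the deletion and 1079.6, 466 and 1711 CPM in the wild type. PHO84 was at 10.1% of its glucose level at 15 min in the deletion and 9.51% in the wild type, where VTC1 was at 44.8% and 43.2%. An antisense RNA, YNCM0001W, overlaps PHO84, and as the strand setting of the counting is not given in the sources used here, reads of the 2 cannot be told apart.

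VTC3, another subunit of the same polymerase, had 546, 189 and 454 CPM in the deletion and 475, 210.2 and 546 CPM in the wild type. PHO81, the inhibitor of the Pho80-Pho85 kinase, had 164, 58.3 and 137 CPM in the deletion and 157, 50.4 and 151 CPM in the wild type. PHO86, which Pho84 needs to leave the endoplasmic reticulum, had 308, 139.8 and 255 CPM in the deletion and 278, 129.9 and 273 CPM in the wild type. In glucose all 5 genes were higher in the deletion (median difference 0.20), and at 60 min all 5 were lower in it (median -0.25), on log2(CPM + 2). Of the 4786 genes, 1995 were higher in the deletion in glucose and 2599 were lower in it at 60 min. The counting interval of the strain difference spanned zero for PHO81 in glucose (-0.12 to 0.25) and at 60 min (-0.44 to 0.16). For PHO86 it spanned zero at 60 min (-0.32 to 0.12). None passed the strain test across conditions. That test fits the same strain difference to every condition, so it cannot decide on a difference that changes sign between them. With TMM scaling, 4 of the 5 left the group.

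In the mating group, MFA1 (YDR461W, chromosome IV, 1385176 to 1385286) encodes the a-factor pheromone. It had 368, 171 and 308 CPM in the deletion and 571, 227 and 706 CPM in the wild type, lower in the deletion in each condition. Its annotated span is 111 bases, and per length it was among the most densely covered members, at 3312 CPM per kb in the deletion and 5148 in the wild type in glucose. GPA1, the alpha subunit of the pheromone-coupled G protein, had 199, 60.7 and 203 CPM in the deletion and 230.2, 61.4 and 243 CPM in the wild type, with 60 min intervals spanning zero in both strains.

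Methionine and one-carbon metabolism gave 4 members, grouped after they were known. A separate list of methionine and sulfur genes, written from general knowledge, had 16 genes of sufficient count. Of these, 6 were low at 15 min in both strains and 0 were members. The median 15 min change over the 16, averaged over both strains, was 0.19. MUP1, the high-affinity methionine permease gene, had 224, 106 and 293 CPM in the deletion and 297, 131 and 495 CPM in the wild type. GCV2, the P subunit of the mitochondrial glycine cleavage complex, had 92.4, 33.3 and 125 CPM in the deletion and 91, 37.8 and 138 CPM in the wild type. Both were above glucose at 60 min in both strains. GCV1, the T subunit of that complex, had 171, 67.2 and 160.0 CPM in the deletion and 218, 96.8 and 218 CPM in the wild type, and so only returned to glucose. MET30, the F-box protein of the ubiquitin ligase that restrains sulfur genes, was at 99.7% of glucose at 60 min in the deletion and 128% in the wild type.

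Of the 2 lipid genes, FAA3 (YIL009W, chromosome IX, 339344 to 341428) encodes a fatty acyl-CoA synthetase and CDS1 the CDP-diacylglycerol synthase. FAA3 had 116, 29.1 and 137 CPM in the deletion and 162, 61.4 and 209.6 CPM in the wild type, lower in the deletion in each condition. CDS1 had 126, 35.1 and 119.6 CPM in the deletion and 112, 40.1 and 176 CPM in the wild type, with a 60 min interval above glucose in the wild type only (0.41 to 0.91, against -0.36 to 0.19 in the deletion). That difference between strains was not tested.

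The remaining 6 members were HLR1, CSI2, TOS7, SLF1, THI21 and IRC8, the last described with the strain test. HLR1 (YDR528W) had 72, 7.14 and 69.7 CPM in the deletion and 66.4, 6.3 and 69.9 CPM in the wild type, values that nearly coincide between strains. CSI2 (YOL007C) had 159, 28 and 191 CPM in the deletion and 196, 21.3 and 204 CPM in the wild type. These 2 were among the 8 members at least 2 log2 units below glucose at 15 min in both strains, with YOX1, YHP1, TOS6, PHO84, GIN4 and CLB1. TOS7, another gene named as a target of SBF, was at 43.8% of glucose at 15 min in the deletion and 21.5% in the wild type. SLF1 (a La-motif RNA-binding protein) and THI21 (a kinase of thiamine synthesis) had under 20 counts in a 15 min library, as did YOX1, TOS6, HLR1, GIN4, AXL2, KAR3 and NCA3.

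Lists of yeast pathway genes, written from general knowledge with earlier results of these data known, put the members beside the other genes that were low at 15 min. Of 34 lists, 19 held 5 or more such genes, and 8 of these held a member. The G1/S and replication list had 43 genes of sufficient count. Of these, 21 were low at 15 min in both strains, and 4 of the 21 were members (YOX1, PCL1, CLN1 and CDC6), 4 recovered in 1 strain and 13 stayed low. In the list of cell wall mannoproteins, 16 of 41 genes were low at 15 min, of which 4 were members (TOS6, EXG1, NCA3 and PLB2) and 9 stayed low. In the mating list it was 8 of 20, with 3 members (MFA1, GPA1 and KAR3) and 5 that stayed low. With TMM scaling MFA1 and KAR3 left the group, whereas the members named from the G1/S and cell wall lists stayed. Over all 1125 genes low at 15 min in both strains, 3.91% were members.

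The growth lists held no member. Of 133 cytosolic ribosomal protein genes 130 were low at 15 min, and all 130 were still low at 60 min in both strains. The same held for 79 of 80 ribosome biogenesis genes, 18 of 18 genes of RNA polymerase I and III subunits, 29 of 36 translation factor genes and 22 of 28 genes of purine and pyrimidine synthesis. Amino acid synthesis lay between, with 32 of 70 genes low at 15 min, 2 of them members (GCV1 and GCV2) and 29 that stayed low. In all, 20 of the 44 members (45.5%) were in any list, as were 41.1% of the genes that stayed low and 23.6% of the 4786 genes. Counts per list are small and are given without a test.

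**Figure D4:**
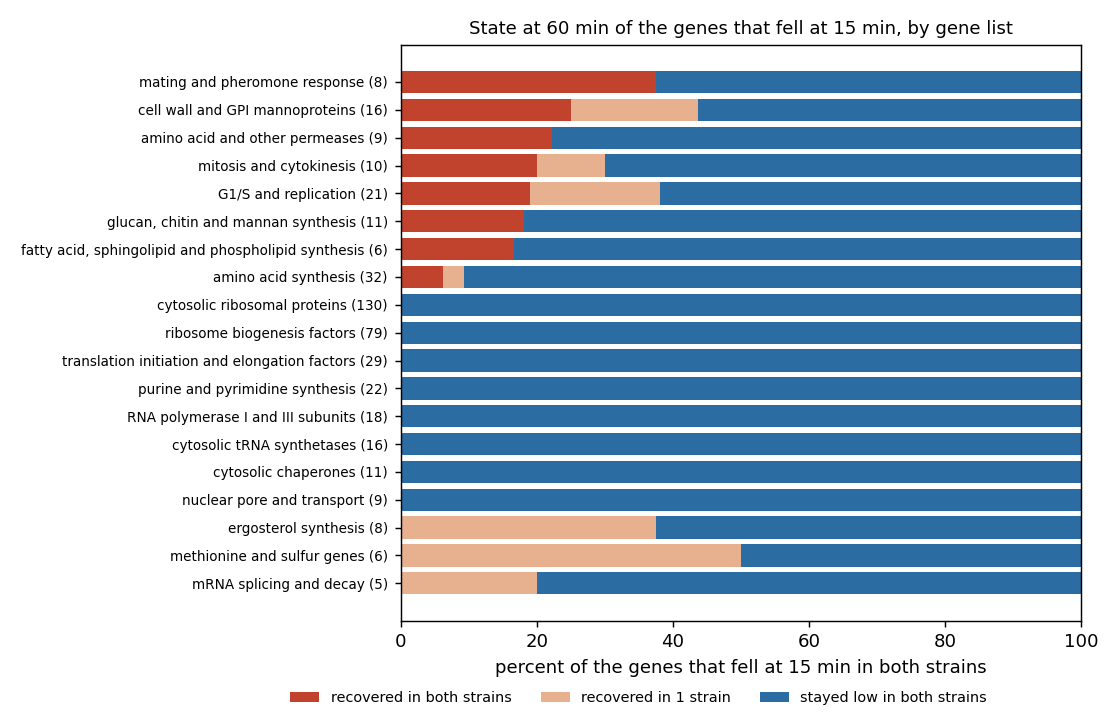
For each of the 19 gene lists with 5 or more genes at least 1 log2 unit below glucose at 15 min in both strains (number in parentheses), the bars give the percent of those genes within the 60 min limit in both strains (red), in 1 strain (light) or in neither (blue). Lists of ribosome and translation genes are wholly blue, and the mating and cell wall lists have the largest red shares. MFA1 and KAR3 of the mating list did not meet the rule with TMM scaling.

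The strain difference was tested across all genes with edgeR's quasi-likelihood test, with condition and genotype as additive terms, so that the 3 conditions stand in for replicates. Over 5186 genes, 95 passed at an adjusted p of 0.05 (1.83%), with 38 lower in the deletion (0.733%) and 57 higher (1.1%). Among the 44 members 4 passed (9.09%), all lower in the deletion, namely CDC6, MFA1, IRC8 and FAA3. The test used TMM scaling, with which MFA1 and IRC8 did not meet the membership rule. In a fit limited to genes with a mean count of 50 or more, 4 members and 76 genes in all passed. At an unadjusted p under 0.05 in edgeR, 14 of the 44 members passed, against 703 of the 5186 genes (13.6%). Among the 1034 genes that stayed low, 14 passed (1.35%), 3 of them lower in the deletion. The shares were not tested against each other, and the rule's limits on both strains bear on the spread that the test uses.

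CDC6, the replication-licensing gene, was lower in the deletion by 0.75 ± 0.14 on the log2 scale (log2 -0.75, Benjamini-Hochberg adjusted p = 0.00777, edgeR). The error given with ± is the estimate over the root of edgeR's F statistic, an approximate standard error. On log2(CPM + 2) the gap was -1.03 before the shift, narrowing to -0.63 at 15 min and -0.48 at 60 min. Without the glucose libraries it no longer passed (adjusted p = 0.195, edgeR), and DESeq2 gave an adjusted p of 0.101.

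MFA1, the a-factor gene, differed by -0.72 ± 0.15 (adjusted p = 0.019, edgeR) and passed in all 10 alternative fits. The gap on log2(CPM + 2) was widest at 60 min, at -1.19, against -0.63 before the shift and -0.40 at 15 min. The difference was not particular to MFA1. Of 20 mating list genes of sufficient count, 4 passed lower in the deletion and 0 higher. Besides MFA1 these were AGA1 (-1.34), SST2 (-1.18) and AGA2 (-0.65), which are not members. IRC8 (YJL051W, chromosome X, 339787 to 342255), a gene of unclear function, had 71, 29.1 and 88.6 CPM in the deletion and 108, 52.7 and 152 CPM in the wild type. It differed by -0.68 ± 0.13 (adjusted p = 0.0112, edgeR) and FAA3 by -0.60 ± 0.13 (adjusted p = 0.0249, edgeR). Both missed the threshold with DESeq2, at adjusted p of 0.137 and 0.165.

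**Figure D5:**
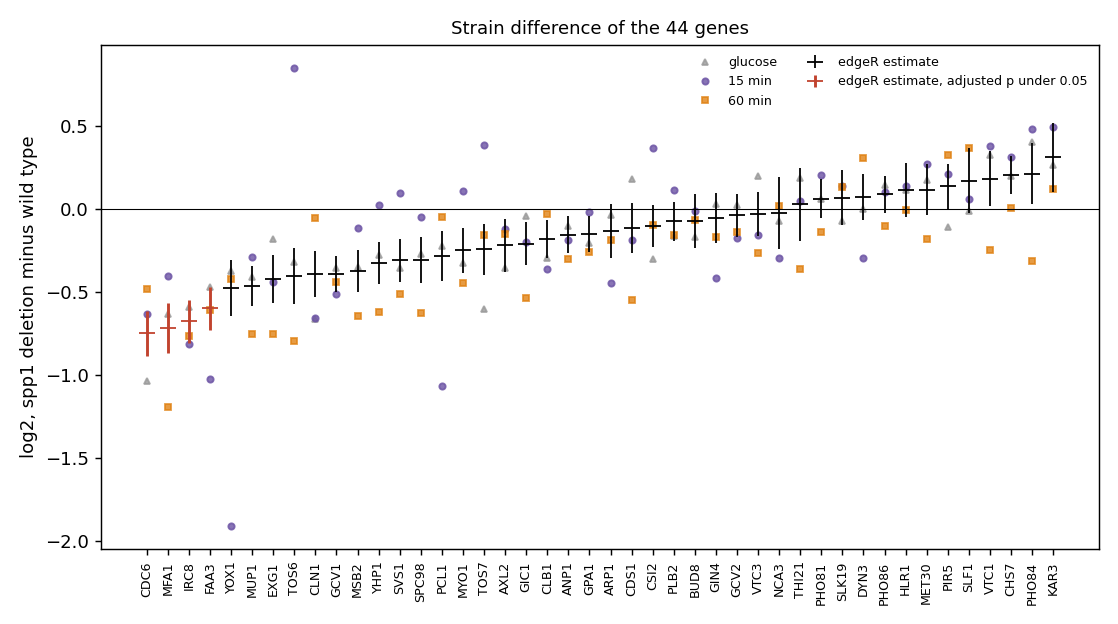
Log2 difference, spp1 deletion minus wild type, for each of the 44 genes, sorted by the edgeR estimate across conditions (horizontal marks, with bars of ± the error described in the text). Triangles, circles and squares give the single-library difference on log2(CPM + 2) before the shift, at 15 min and at 60 min. The 4 genes in red, CDC6, MFA1, IRC8 and FAA3, passed the test.

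On log2(CPM + 2), the median gap between strains over the members was -0.16 before the shift, -0.08 at 15 min and -0.22 at 60 min, against -0.04, -0.03 and -0.03 over the 4786 genes. With TMM scaling the members' medians were -0.11, -0.05 and -0.20. Of the members 19 (43.2%) were lower in the deletion in all 3 conditions and 2 (4.55%) higher in all 3, against 23.7% and 13.5% of the 4786 genes. These are counts over genes measured in the same 6 libraries, with no test of their own. A strain difference of 1 log2 unit or more was seen for CDC6 in glucose (lower, as in 0.334% of the 4786 genes), for YOX1, PCL1 and FAA3 at 15 min (lower, 0.481%) and for MFA1 at 60 min (lower, 0.397%). No member was higher in the deletion by that much, as 0.606%, 0.961% and 0.669% of the 4786 genes were in the 3 conditions. YOX1 had the largest of these, -1.91 at 15 min, on 6 counts in the deletion and 24 in the wild type, and its difference across conditions was -0.48 ± 0.17 (adjusted p = 0.2, edgeR).

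On the genome the members were spread over 12 chromosomes, with at most 6 on one (IV and XIII). Their annotated spans had a median of 1461 bases, against 1185 for genes that stayed low and 1236 for all 4786. Of the members 25 (56.8%) were on the W strand, as were 50.1% of the 4786 genes. The 2 neighbours PHO86 and NCA3 on chromosome X were the only adjacent members. They point toward each other with 393 bases between their annotated ends, and NCA3 passed its glucose level at 60 min while PHO86 did not.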

How the data were processed

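The authors deposited whole-number counts of NET-seq reads per gene for 6 libraries. Alignment with Bowtie to sacCer3 is named, per the submitters' processing notes, without a version, and neither the counting tool nor its strand setting or annotation is stated there. Counts were used as deposited (3 emptied lines were skipped), and 5116 of 5219 identifiers were named from a RefSeq table of the same assembly. Some items are not reported here.

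Members were found from log2(CPM + 2) on library totals. The members, the gene lists and the naming rule were chosen with earlier results of these data known, and the role groups and the list of close relatives were made once the members were known. The naming rule took the deepest falls at 15 min, the highest 60 min changes and CPM, every strain call, list members, the largest strain differences in response and the genes next to each limit. It named 33 members, and the other 11 (ANP1, CDS1, CHS7, DYN3, GCV1, MET30, MSB2, PHO81, PIR5, SLF1 and SPC98), close relatives, and the other genes of the text were named after their values were seen.

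The strain difference was fitted with edgeR 4.0.16 in R 4.3.3 (quasi-likelihood, TMM scaling, mean count of 10 or more, condition plus genotype, 2 residual degrees of freedom) with Benjamini-Hochberg adjustment over 5186 genes. Nothing in the labels gives more than 1 culture per group, so that p-values measure only the spread of strain differences between conditions. The fit was also run on simulated counts with the same spread beyond counting error for every gene. Strain differences in them did not change between conditions, so that run cannot show whether conditions can stand in for replicates. DESeq2 1.42.0 and limma 3.58.1 were alternatives. Intervals are exact 95% binomial intervals on pairs of counts. They treat reads as independent, and how PCR duplicates were treated is unstated in the sources used here. Promoter sequences and introns were not analysed here. Figures were drawn with matplotlib 3.10.9.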

Additional observations from a re-analysis of the deposited data

Results flagged for a closer look

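In 3 members the 2 strains moved in opposite directions. These genes were below their glucose level at 60 min in the spp1 deletion and above it in the wild type, with both counting intervals clear of zero. The share of the 4786 genes that did so is not given here. Over those genes, the 60 min change in the deletion minus that in the wild type had quartiles of -0.21 and 0.21. PHO84, the phosphate transporter gene, changed by -0.20 on log2(CPM + 2) in the deletion (interval -0.27 to -0.13) and 0.51 in the wild type (0.45 to 0.58), so that the deletion minus the wild type was -0.72. VTC3, of the polyphosphate polymerase, changed by -0.26 (-0.40 to -0.13) in the deletion and 0.20 (0.07 to 0.33) in the wild type, a gap of -0.46. MFA1, the a-factor gene, changed by -0.25 (-0.43 to -0.09) in the deletion and 0.30 (0.19 to 0.42) in the wild type, a gap of -0.56. With 1 library per strain and time the difference was not tested, and the intervals cover counting error only. None of these genes met the membership rule with TMM scaling.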

How the results depend on the processing

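The rule found 44 members, 28 with TMM scaling and 28 with library medians (27 in both), 26 with a 15 min limit of -1.2, and 81 or 27 with a 60 min limit of -0.5 or -0.1. The wild type alone gave 113 genes and the deletion alone 79. For the strain difference, 4 members and 95 of all genes passed. DESeq2 called 1 and 50, leaving out the 15 min libraries 7 and 195, and leaving out the glucose or 60 min libraries 62 and 172 of all genes (3 and 6 members). Members 1 log2 unit apart between strains in glucose numbered 1, and 0 with TMM scaling, library medians or a pseudocount of 8, which also left 1 of 3 at 15 min. In every fit the called members were lower in the deletion, except PHO84, higher without the 60 min libraries. No paired analysis was possible because each strain and condition has 1 library and so no replicate number, and the condition term of the fit already compares the strains within conditions. A fit without chromosome XI was chosen after seeing the data and gave the same counts, 4 and 95. Library totals limit the smaller changes. Counts under 20 at 15 min in 9 members, YOX1, TOS6, HLR1 and GIN4 among them, limit how well deep falls are measured.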

Other observations

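Close relatives of the members did not all share their course. Not every relative looked up is described, and those named were chosen after their values were seen. KCC4, a relative of GIN4, missed only the 15 min limit, and only in the deletion. On log2(CPM + 2) it changed by -0.91 at 15 min and -0.10 at 60 min in the deletion. In the wild type it changed by -1.19 and 0.33. CLN2, the paralog of CLN1, had 148, 8.92 and 96.4 CPM in glucose, at 15 min and at 60 min in the deletion and 248, 15 and 107 CPM in the wild type. It was therefore still below glucose at 60 min in both strains, where CLN1 was above it. CLB2, the partner of CLB1, had 88.5, 13.7 and 60.2 CPM in the deletion and 115, 21.3 and 85.6 CPM in the wild type and also stayed below its glucose level. GIC2, the paralog of GIC1, had 185, 51.1 and 47.3 CPM in the deletion and 278, 52 and 140.4 CPM in the wild type.

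LRE1 and PLB1 were above their glucose level at 15 min, where the related members were below it. LRE1, the paralog of HLR1, had 39.4, 91.6 and 66.3 CPM in the deletion and 39.1, 77.1 and 67.8 CPM in the wild type. PLB1, the paralog of PLB2, had 78.9, 218 and 211 CPM in the deletion and 80.3, 201 and 167 CPM in the wild type. SRO9, the paralog of SLF1, had 385, 6.54 and 89.5 CPM in the deletion and 410.1, 3.15 and 119 CPM in the wild type, a deeper and more lasting drop than that of SLF1. The second a-factor gene MFA2, which misses the 15 min limit in the deletion, had 801, 441 and 729.7 CPM in the deletion and 1139, 493 and 1360.4 CPM in the wild type, lower in the deletion in each condition as MFA1 was. Its strain difference did not pass (edgeR, adjusted p = 0.164). Reads that near-identical stretches of such pairs share could not be separated here.

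Of the 81 immediate neighbours with sufficient counts, 23 (28.4%) were at least 1 log2 unit below glucose at 15 min in both strains, against 23.5% of the 4786 genes. The 23 include the 2 adjacent members PHO86 and NCA3, whose fall was set by the rule. Of the 19 neighbours transcribed divergently from a member, 16 had sufficient counts and 0 were members, where the share of members among the 4786 genes was 0.919%.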
